A study of Homo sapiens with 16 samples.

Results

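Of the 20531 entries of the estimated-count table, 5 are described here: the TRP cation channel genes TRPM8, TRPV6, TRPM4 and TRPM7, and KCNMA1, which encodes the pore-forming subunit of the BK potassium channel. The members were selected by gene symbol, as channel genes of the prostate, and were chosen with earlier results of these libraries known, among them the response to androgen in control cells. In the study's own grouping of androgen-regulated genes, made on these same libraries, TRPM8 is listed in the class whose androgen induction was lower after SLIRP knockdown, and KCNMA1 in the class with little or no effect. Differences that this choice used are therefore given as descriptions, with no test. The response to androgen in the SLIRP knockdown cells was tested, although the study's classes read those libraries too.

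RNA was sequenced from LNCaP cells, an androgen-sensitive human prostate cancer line with a mutated but functional androgen receptor, in 16 libraries that fall into 4 groups of 4. The cells were transfected with a nonsense control siRNA (NS) or with a pool of siRNAs against SLIRP, an RNA-binding protein studied as a coregulator of the androgen receptor. Serum-free medium followed, with either ethanol as the vehicle or 1 nM dihydrotestosterone (DHT), the most potent natural androgen. The control cells form the groups NS-Veh and NS-1nM DHT, the knockdown cells SLIRP-Veh and SLIRP-1nM DHT, and cells without any siRNA were not analysed here. According to the methods, each group's 4 libraries are pairs of biological replicates from 2 separate experiments. Which replicate number belongs to which experiment is not given in the sources used here, so experiment could not be entered as a term, and p-values measure the spread between these libraries.

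TRP channels are tetrameric cation channels that let sodium, calcium or magnesium into the cell. TRPM8 opens with cold and menthol and is best known in the prostate as an androgen-dependent gene of luminal cells. TRPV6 is a highly calcium-selective channel of epithelia. TRPM4 is opened by intracellular calcium and carries monovalent cations, so that it depolarizes the membrane. TRPM7 joins a cation channel permeable to magnesium, calcium and zinc to a kinase domain. The BK channel encoded by KCNMA1 opens with calcium and voltage and lets potassium out, which hyperpolarizes the membrane and increases the driving force for calcium entry.

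The channel genes lie on different chromosomes. In the hg19 build and the GENCODE annotation, TRPM8 (Entrez 79054) lies at chr2:234826018-234928166 on the plus strand and TRPM4 (Entrez 54795) at chr19:49660998-49715093 on the plus strand. TRPV6 (Entrez 55503) lies at chr7:142568961-142583490, TRPM7 (Entrez 54822) at chr15:50844670-50978994 and KCNMA1 (Entrez 3778) at chr10:78629359-79398127, all on the minus strand. The strand setting of the counting is not given in the sources used here, and reads from overlapping genes cannot then be told apart. Exon bases shared with another annotated gene made up 8.05% of the TRPM7 exons, of which 606 bases belong to an antisense lncRNA and 390 to a protein-coding locus on the same strand. The share was 1.5% for TRPM8, 1.06% for KCNMA1, 0.833% for TRPV6 and 0 for TRPM4. TRPV6 has a close paralog, TRPV5, which was listed at 0 in all 16 libraries.

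Since the members differed in their response to androgen, the start-site windows of TRPM8, KCNMA1 and TRPV6 are shown, from 250 bases before to 50 after each RefSeq start in GRCh38.p14, 5′ to 3′ on the gene's own strand. The 6-letter half-site of the androgen response element, AGAACA or TGTTCT on the other strand, is in capitals. For TRPM8, which has 6 annotated starts, the first (chr2:233917123-233917422) and the sixth (chr2:233979899-233980198) are printed. The KCNMA1 window is that of the first of its 2 starts (chr10:77637759-77638058), and TRPV6 has 1 (chr7:142885696-142885995).
TRPM8 start 1: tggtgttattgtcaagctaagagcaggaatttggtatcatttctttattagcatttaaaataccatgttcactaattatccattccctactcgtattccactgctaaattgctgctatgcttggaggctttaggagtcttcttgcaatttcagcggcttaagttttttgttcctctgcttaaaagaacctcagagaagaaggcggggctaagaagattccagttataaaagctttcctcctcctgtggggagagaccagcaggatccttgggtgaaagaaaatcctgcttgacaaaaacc
TRPM8 start 6: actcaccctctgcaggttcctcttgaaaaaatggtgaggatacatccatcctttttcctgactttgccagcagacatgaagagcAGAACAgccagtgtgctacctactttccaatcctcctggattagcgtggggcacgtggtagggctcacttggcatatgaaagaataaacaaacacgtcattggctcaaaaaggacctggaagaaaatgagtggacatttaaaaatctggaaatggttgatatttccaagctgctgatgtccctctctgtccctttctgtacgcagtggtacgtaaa
TRPV6: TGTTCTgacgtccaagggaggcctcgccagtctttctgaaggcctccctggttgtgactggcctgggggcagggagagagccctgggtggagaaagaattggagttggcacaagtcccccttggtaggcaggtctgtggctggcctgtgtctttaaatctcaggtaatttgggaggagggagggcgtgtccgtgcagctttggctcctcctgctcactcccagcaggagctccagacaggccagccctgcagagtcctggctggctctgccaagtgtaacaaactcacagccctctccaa
KCNMA1 start 1: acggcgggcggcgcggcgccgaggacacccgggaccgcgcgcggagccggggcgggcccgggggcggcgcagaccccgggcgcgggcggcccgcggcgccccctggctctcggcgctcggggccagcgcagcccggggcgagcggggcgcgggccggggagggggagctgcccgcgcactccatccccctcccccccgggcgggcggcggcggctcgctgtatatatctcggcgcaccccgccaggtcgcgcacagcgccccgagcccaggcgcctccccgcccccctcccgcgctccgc
Among 35116 promoter windows of the same length, 5192 (14.8%) held the half-site on at least 1 strand, and 1 (0.00285%) held the full palindrome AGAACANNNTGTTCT. The half-site occurred in 1 of the 6 TRPM8 windows, 166 bases before the sixth start, and in the TRPV6 window at its upstream edge, 250 bases before the start. Neither the 2 KCNMA1 windows nor those of TRPM4 and TRPM7 held it. These windows are short, and the letters are a description, not binding sites. The first KCNMA1 window had a GC content of 85.7%, against a median of 58.7% over all windows and 41.0% for the first TRPM8 window.

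Depth was low. Library totals lay between 436353 and 1689708 estimated counts, so that 3 counts, taken as the floor, were worth 1.78 to 6.95 CPM (gene counts relative to the TMM-adjusted total of each library). The targeted gene, listed under its older symbol C14orf156, lay between 45.1 and 63.4 CPM in the 8 NS libraries and between 1.41 and 8.04 CPM in the 8 SLIRP siRNA libraries. KLK3, which encodes the androgen-induced prostate-specific antigen, was higher with DHT in every library of both siRNAs than in every matching vehicle library. All 7 luminal prostate markers were detected, and KRT5, TP63, DCN, PECAM1 and PTPRC, markers of basal, stromal, endothelial and blood cells, had 0 counts in all 16 libraries. Over all 16 libraries the basal marker KRT14 had 4 counts and the stromal marker COL1A2 had 2. COL1A1 (5.64 to 21.9 CPM) and VWF (2.37 to 17.4 CPM) were detected at low levels.

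TRPM8, the cold and menthol receptor, lay near the floor of 3 counts without androgen and well above it with DHT. In NS-Veh the 4 libraries held 4, 1, 3 and 5 counts, or 8.01, 2.32, 1.98 and 4.02 CPM. In NS-1nM DHT they held 35, 37, 31 and 31 counts, or 36.7, 28.5, 27.0 and 22.7 CPM. The groups did not overlap: the mean went from 4.08 ± 2.76 to 28.7 ± 5.87 CPM (SD, n = 4 each). The fitted log2 difference was 2.95 (SE 0.35), and the ratio of the summed counts, 134 against 13, scaled by depth, was 7.98 with a 95% exact interval of 4.51 to 15.4 that covers counting error only. These are the values that led to the choice of TRPM8.

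TRPM8 was also higher with DHT in the SLIRP siRNA cells, at a lower level. SLIRP-Veh libraries had 4, 1, 2 and 3 counts (2.37, 1.57, 2.69 and 2.63 CPM, mean 2.31 ± 0.518, SD, n = 4), and SLIRP-1nM DHT libraries 7, 12, 12 and 16 counts (9.13, 16.9, 11.7 and 12.9 CPM, mean 12.6 ± 3.25, SD, n = 4). The lowest DHT library lay above the highest vehicle library. TRPM8 was removed by the low-count filter in the fit of these 8 libraries. In place of that planned fit, the 4 against 4 libraries were compared by a two-sided exact permutation test over the 70 splits. This test treats the libraries as exchangeable, although they come from 2 experiments. The mean log2 CPM (prior count of 2) was 1.76 higher with DHT, with an exact p of 0.0286, the smallest this design can give. Without the filter the edgeR log2 fold change was 2.35 (SE 0.51, adjusted p = 6.95e-04). Of the 4 alternative fits that gave TRPM8 a value, 2 passed an FDR of 0.01, this one among them. Those that did not were limma on the normalized table (adjusted p = 0.0297) and edgeR without replicate 1 (adjusted p = 0.0281). The ratio of the summed counts, 47 against 10, was 5.28 (2.63 to 11.7). The class of TRPM8 in the study also read these libraries, so these p-values are not independent evidence of its direction.

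Between the siRNAs, TRPM8 differed in DHT in a way that its class in the study already holds, so no test is given. It passed the low-count filter of the 16-library fit through NS-1nM DHT, the group where it is high. Every SLIRP-1nM DHT library (9.13 to 16.9 CPM) lay below every NS-1nM DHT library (22.7 to 36.7 CPM), a log2 difference of -1.17 (SE 0.27). In vehicle the groups overlapped and the estimate was -0.56 (SE 0.57), with 10 counts in all against 13. Leaving out replicate 1 moved it to -0.24, and leaving out replicate 3 to -0.98. The response to DHT was lower in SLIRP siRNA than in NS cells by an estimated -0.61 on the log2 scale, but its SE of 0.68 gave a 95% interval of -1.93 to 0.72 that includes 0. Without replicate 3 it was -0.16. The few vehicle counts set this precision: whether DHT raised TRPM8 by a smaller factor after SLIRP knockdown was not detectable at this depth, although the level reached was lower.

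**Figure D1:**
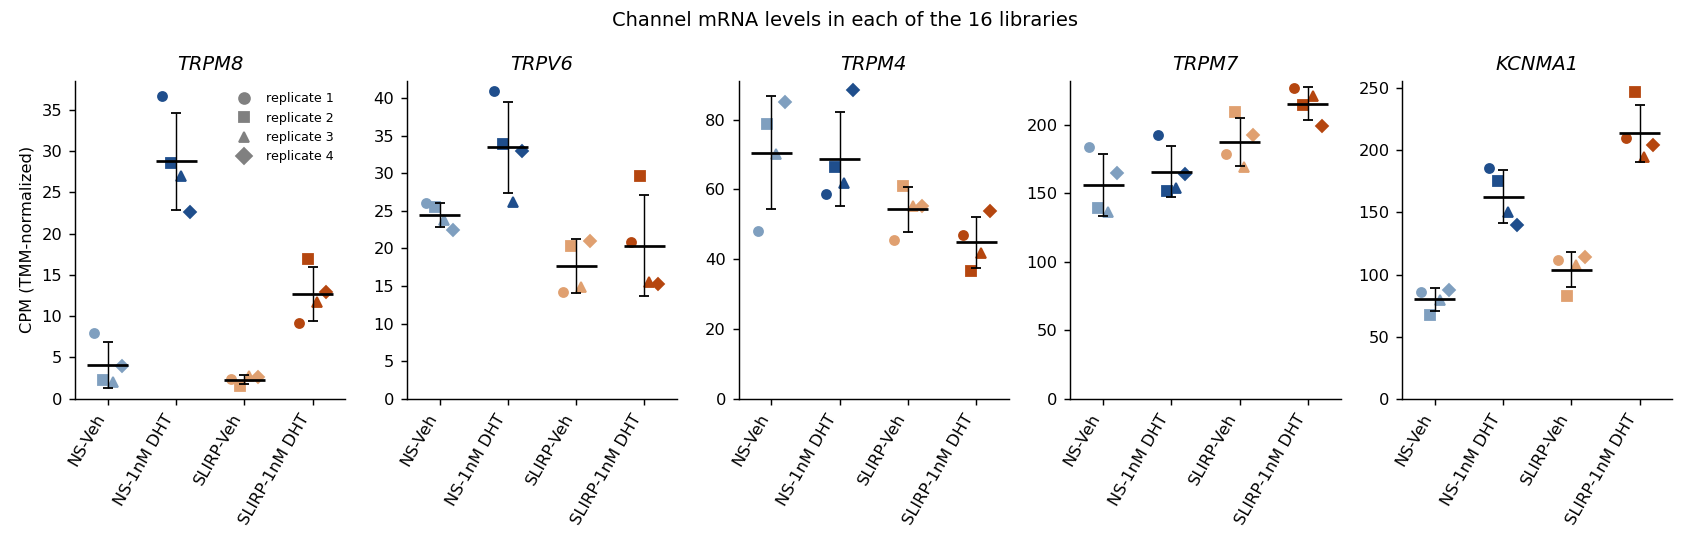
Level of each channel gene in CPM (TMM-normalized, linear axis from 0) in each of the 16 libraries, by group, with marker shapes for the replicate number, the mean (thick line) and the SD (bars, n = 4). TRPM8 and KCNMA1 do not overlap between vehicle and DHT with either siRNA, while TRPM4 and TRPM7 overlap in both.

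KCNMA1, the BK channel gene, was about 2 times higher with DHT whichever siRNA the cells had received. In NS-Veh the libraries had 86.1, 67.2, 79.3 and 87.5 CPM (mean 80.02 ± 9.26, SD, n = 4), and in NS-1nM DHT 186, 175, 151 and 140 CPM (163 ± 21.2, SD, n = 4). In SLIRP-Veh they had 111, 83.0, 108 and 114 CPM (104 ± 14.2, SD, n = 4), and in SLIRP-1nM DHT 210, 247, 194 and 204 CPM (214 ± 22.9, SD, n = 4). With each siRNA every DHT library exceeded every vehicle library.

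The log2 difference with DHT in NS cells was 0.98 (SE 0.11), a description. In SLIRP siRNA cells it was 1.00 (SE 0.12), and KCNMA1 rose by edgeR's quasi-likelihood test (adjusted p = 1.13e-06). All 12 alternatives with a value kept this call, with log2 fold changes from 0.86 to 1.06. In this comparison 1.04% of the 9751 genes tested were called, and KCNMA1 was the 1 member called of the 4 that passed the filter. The class of KCNMA1 in the study also read these libraries, so the call is not independent evidence of its direction. The responses with the 2 siRNAs differed by 0.0082 on the log2 scale (SE 0.17, 95% interval -0.33 to 0.35). SLIRP siRNA cells held more KCNMA1 mRNA than NS cells by 0.38 (SE 0.13) in vehicle, with overlapping groups, and by 0.39 (SE 0.10) in DHT, with every library higher.

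The other 3 TRP genes gave no called response to androgen. For reference, 1.31% of the 10367 genes tested in NS cells were called, and 2 of the 5 members, TRPM8 and KCNMA1, were among them; since that contrast led to the choice of members, nothing is read from this count.

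TRPV6, the calcium-selective channel, lay at 26.0, 25.5, 23.8 and 22.5 CPM in NS-Veh and at 40.9, 33.9, 26.1 and 32.9 CPM in NS-1nM DHT. Every DHT library was above every vehicle library, the closest pair being 26.0 and 26.1 CPM, and the log2 difference was 0.47 (SE 0.20). In SLIRP-Veh the libraries had 14.2, 20.4, 14.8 and 21.0 CPM, and in SLIRP-1nM DHT 20.9, 29.6, 15.5 and 15.3 CPM. These groups overlapped, with a log2 fold change of 0.17 (SE 0.28, edgeR adjusted p = 0.845). The 2 responses differed by -0.30 (SE 0.33, 95% interval -0.95 to 0.36), and by -0.0033 without replicate 4.

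TRPM4, the calcium-activated monovalent channel, had 48.0, 78.8, 70.03 and 85.1 CPM in NS-Veh and 58.7, 66.3, 61.8 and 88.5 CPM in NS-1nM DHT. In SLIRP-Veh it had 45.6, 61.1, 55.2 and 55.2 CPM, and in SLIRP-1nM DHT 47.0, 36.7, 41.8 and 53.9 CPM. The spread within NS-Veh, an SD of 16.2 CPM about a mean of 70.5 (n = 4), was far larger than the difference with DHT. The log2 difference with DHT was -0.07 (SE 0.15) in NS cells and -0.22 (SE 0.17, edgeR adjusted p = 0.605) in SLIRP siRNA cells.

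TRPM7, the channel-kinase, was the TRP gene with the most counts in every group. The libraries had 184, 139, 137 and 165 CPM in NS-Veh and 193, 152, 154 and 165 CPM in NS-1nM DHT. With SLIRP siRNA they had 179, 210, 170 and 193 CPM in vehicle and 227, 214, 221 and 199 CPM in DHT. Vehicle and DHT overlapped with either siRNA. The log2 difference with DHT was 0.09 (SE 0.10) in NS cells and 0.20 (SE 0.10, edgeR adjusted p = 0.380) in SLIRP siRNA cells.

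SLIRP siRNA against NS moved these 3 genes in unlike directions, with calls in DHT only at an FDR of 0.01. In DHT, TRPM4 fell by 0.61 (SE 0.17, edgeR adjusted p = 0.00374) on the log2 scale, all 4 SLIRP libraries lying below all 4 NS libraries. TRPV6 fell by 0.77 (SE 0.22, edgeR adjusted p = 0.00563), and the groups overlapped through replicate 2 of SLIRP-1nM DHT at 29.6 CPM. TRPM7 rose by 0.38 (SE 0.10, edgeR adjusted p = 0.00287), with all 4 SLIRP libraries above all 4 NS libraries. SLIRP siRNA changed many genes: 24.4% of the 10684 genes tested were called in DHT and 21.7% in vehicle, and calls for 3 channel genes are read against that share.

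These 3 calls were close to the threshold. That for TRPM4 was lost with DESeq2 (adjusted p = 0.0102), with limma (0.0105) and in edgeR without replicate 2 (0.0247), 3 (0.0278) or 4 (0.0221). That for TRPV6 was lost with DESeq2 (adjusted p = 0.0238), with limma (0.0151), in edgeR on the compared groups alone (0.01005) and without replicate 1 (0.0379), 3 (0.0294) or 4 (0.0685). That for TRPM7 was lost with limma (adjusted p = 0.0238) and in edgeR without replicate 2 (0.0190) or 3 (0.0282). The direction was the same in each of these fits.

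In vehicle none of the 3 passed by edgeR at an FDR of 0.01. The log2 difference was -0.45 for TRPM4 (SE 0.17, adjusted p = 0.0343), 0.27 for TRPM7 (SE 0.11, adjusted p = 0.0487) and -0.47 for TRPV6 (SE 0.25, adjusted p = 0.144), although every SLIRP-Veh library of TRPV6 lay below every NS-Veh library. That the change differed between vehicle and DHT is not shown: the estimated differences were -0.16 (SE 0.24) for TRPM4, -0.30 (SE 0.33) for TRPV6 and 0.11 (SE 0.15) for TRPM7. The summed level of the 7 luminal markers also moved with the siRNA, from 3552 to 4169 CPM over the NS libraries to 2617 to 3176 CPM over the SLIRP siRNA libraries, and its part in these differences was not tested. The 7 markers did not share a direction: mean KLK3 went from 39.5 to 96.6 CPM in vehicle and from 288 to 374 CPM in DHT. The libraries are bulk RNA of a single cell line, in which fewer cells in some state and less RNA per cell cannot be told apart.

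**Figure D2:**
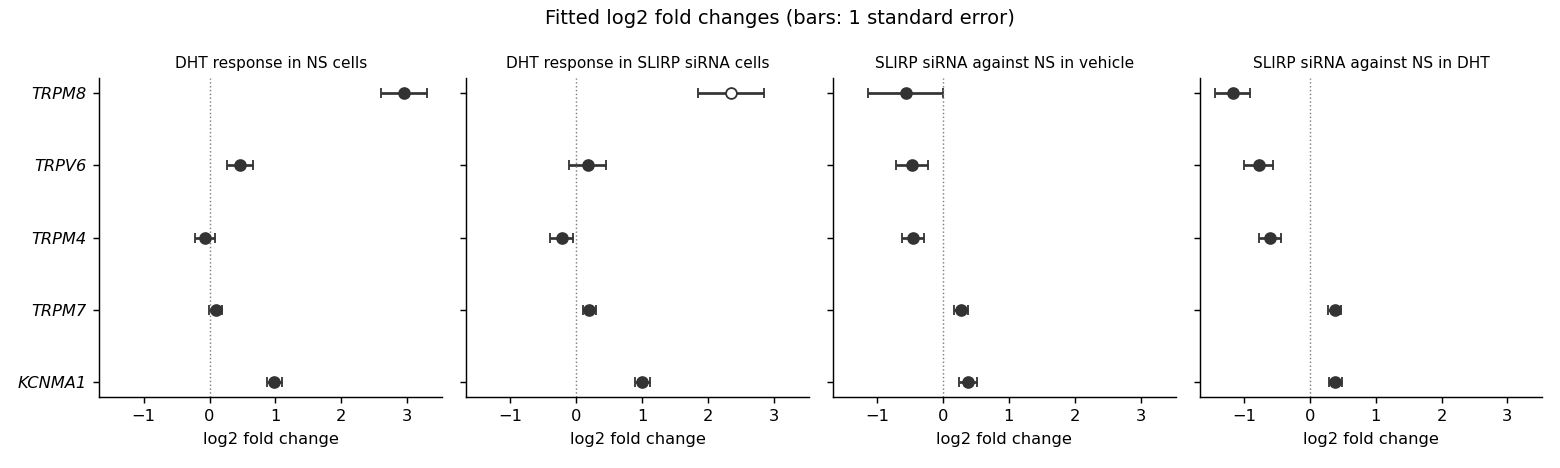
Log2 fold changes (points) with 1 standard error (bars) for the 5 genes in 4 comparisons. The open symbol is TRPM8 in SLIRP siRNA cells, 2.35 in the fit without the low-count filter, which otherwise removed it, and KCNMA1 lies close to 1 in both DHT panels.

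Levels between genes can be compared only per length, here as CPM per kilobase of the annotated canonical transcript. In NS-Veh the order of the members was TRPM4 (17.4 ± 3.99 CPM per kb), TRPM7 (15.0 ± 2.17), KCNMA1 (12.8 ± 1.48), TRPV6 (8.41 ± 0.557) and TRPM8 (0.723 ± 0.490), all SD over 4 libraries. Within 1 SD, TRPM4 and TRPM7 were not separated, nor were TRPM7 and KCNMA1, while TRPV6 and TRPM8 stood below. In NS-1nM DHT the order was KCNMA1 (26.0 ± 3.39), TRPM4 (17.0 ± 3.32), TRPM7 (15.98 ± 1.81), TRPV6 (11.5 ± 2.08) and TRPM8 (5.09 ± 1.04). TRPM4 and TRPM7 were again within 1 SD of each other. KCNMA1 and TRPM4 were separated by more than 1 SD, and TRPM8 was the lowest. In SLIRP-Veh the order was TRPM7 (18.1 ± 1.69), KCNMA1 (16.6 ± 2.27), TRPM4 (13.4 ± 1.58), TRPV6 (6.06 ± 1.24) and TRPM8 (0.410 ± 0.0917), and among the first 3 the 1 SD ranges of neighbours overlapped. In SLIRP-1nM DHT, KCNMA1 (34.2 ± 3.66) and TRPM7 (20.8 ± 1.14) headed the members, followed by TRPM4 (11.04 ± 1.81), TRPV6 (6.99 ± 2.31) and TRPM8 (2.24 ± 0.576). These orders depend on the length used, most for KCNMA1, with 39437 bases over all its annotated exons against 6261 in the canonical transcript. Over all exons, the NS-Veh levels were TRPM7 12.6, TRPM4 10.7, TRPV6 2.06, KCNMA1 2.03 and TRPM8 0.515 CPM per kb. In NS-1nM DHT, KCNMA1 (4.13) then lay below TRPM7 (13.4) and TRPM4 (10.4), and TRPV6 (2.8) below TRPM8 (3.6).

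The wider families were fixed as lists with earlier results known. Of 27 TRP family genes, 21 had at least 1 count in some library and 10 had more than 10 counts over all 16. TRPM8, TRPV6, TRPM4 and TRPM7 together held 74.5% of the family's 6067 counts, and TRPM7 alone 48.3%. The TRPM8 share of the family's counts was 0.969% in NS-Veh against 6.95% in NS-1nM DHT, and with SLIRP siRNA 0.706% against 3.4%. In the response to DHT of SLIRP siRNA cells, the 6 TRP genes tested did not include TRPM8, which the low-count filter removed. By edgeR 0 of the 6 were called, beside 1.04% of all genes, and 0 had an unadjusted p under 0.05. By DESeq2 or limma 0 were called. Their median log2 fold change was 0.02, against 0.00018 over all genes tested. TRPM2, an ADP-ribose-gated calcium channel, next to TRPM7 and TRPM4 in mean CPM over all 16 libraries, had a log2 fold change of -0.14 (SE 0.22, edgeR adjusted p = 0.834) there.

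With SLIRP siRNA in DHT, edgeR called 1 TRP gene higher (TRPM7) and 4 lower (TRPM8, TRPM4, TRPV6 and PKD2) of 8 tested, with a median of -0.52 against -0.02 over all genes, where 24.4% of all genes were called. The count includes TRPM8, which the study classed on these libraries and which passed the filter through NS-1nM DHT, where it is high. Nothing is read from the TRPM8 call, which was lost with limma and without replicate 1. DESeq2 called 3 of the 8 and limma 1. In vehicle, where 21.7% of all genes were called, the count was 0 higher and 1 lower, with a median of -0.44. That gene was PKD2, the polycystin-2 cation channel, named here after its values were seen: it fell by 1.17 (SE 0.21, edgeR adjusted p = 2.81e-05) in vehicle and fell by 1.26 (SE 0.22, edgeR adjusted p = 2.02e-05) in DHT.

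**Figure D3:**
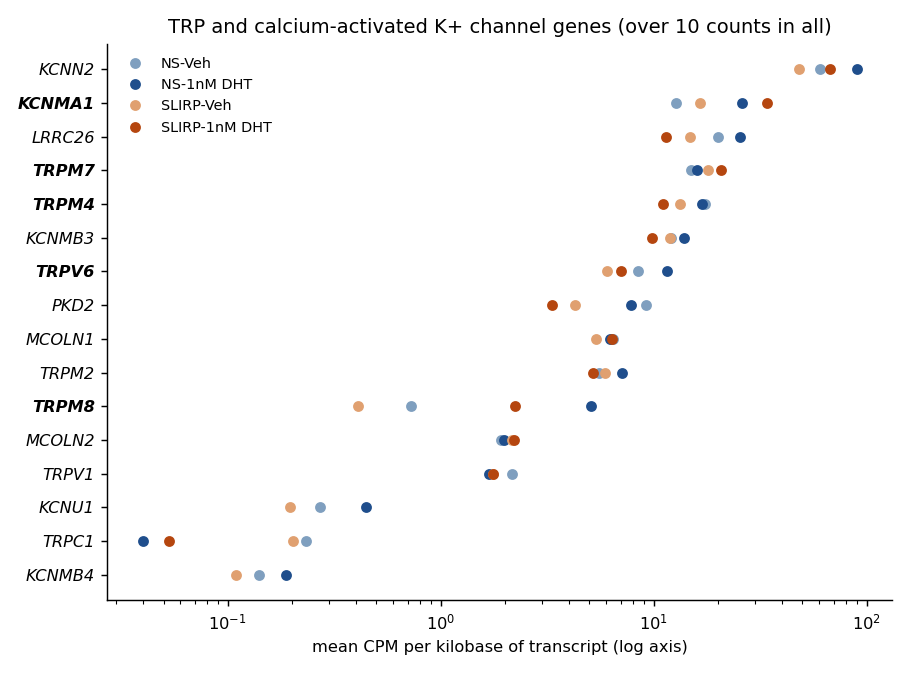
Mean CPM per kilobase of canonical transcript (log axis, a mean of 0 is not drawn) in the 4 groups for TRP and calcium-activated potassium channel genes with more than 10 counts over all libraries; the 5 members are in bold. TRPM8 has the widest gap between vehicle and DHT points among the members, from 0.723 to 5.09 in NS cells.

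BK channels are built from KCNMA1 alone or with auxiliary beta and gamma subunits that shift their voltage and calcium sensitivity. Of 16 genes on the list of calcium-activated potassium channels and BK subunits, 15 were in the table, 4 of them at 0 in every library, and 4 were tested. LRRC26, the gamma subunit known from LNCaP cells to let BK channels open at resting calcium, had 24.1 ± 2.60 CPM in NS-Veh and 30.7 ± 7.10 in NS-1nM DHT, against 18.0 ± 2.33 in SLIRP-Veh and 13.8 ± 7.43 with SLIRP siRNA and DHT (SD, n = 4). Its log2 difference with DHT was 0.29 (SE 0.21) in NS cells and -0.32 (SE 0.32, edgeR adjusted p = 0.720) in SLIRP siRNA cells. LRRC26 fell by 1.05 with SLIRP siRNA in DHT (SE 0.26, edgeR adjusted p = 0.00145), while KCNMA1 was 0.39 higher in the same libraries. In vehicle its difference was -0.45 (SE 0.27, edgeR adjusted p = 0.207).

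KCNN2, which encodes the small-conductance SK2 channel, was the most abundant gene of this list per length, at 60.5 ± 6.06 CPM per kb in NS-Veh and 90.0 ± 11.9 in NS-1nM DHT. Its log2 difference with DHT was 0.54 (SE 0.10) in NS cells and 0.48 (SE 0.11, edgeR adjusted p = 0.0158) in SLIRP siRNA cells, outside the FDR of 0.01. With SLIRP siRNA KCNN2 fell by 0.41 in DHT (SE 0.10, edgeR adjusted p = 0.00158), and its difference in vehicle was -0.34 (SE 0.12, edgeR adjusted p = 0.0197). In the list as a whole, edgeR called 1 gene higher with DHT in SLIRP siRNA cells (KCNMA1), beside 1.04% of all genes. DESeq2 and limma called it too, on the same libraries. The study's class for KCNMA1 also read these libraries, so nothing is read from this call. In NS cells edgeR called 2 higher (KCNMA1 and KCNN2), beside 1.31% of all genes. That contrast led to the choice of members, so nothing is read from the KCNMA1 call there. With SLIRP siRNA edgeR called 1 higher (KCNMA1, whose class in the study used these libraries) and 2 lower in DHT, beside 24.4% of all genes. The KCNMA1 call was lost in 4 of 12 alternatives, with limma and without replicate 2, 3 or 4. In vehicle, beside 21.7% of all genes, it called 0 of 4, with 2 at an unadjusted p under 0.05 and 0 by DESeq2 or limma.

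**Figure D4:**
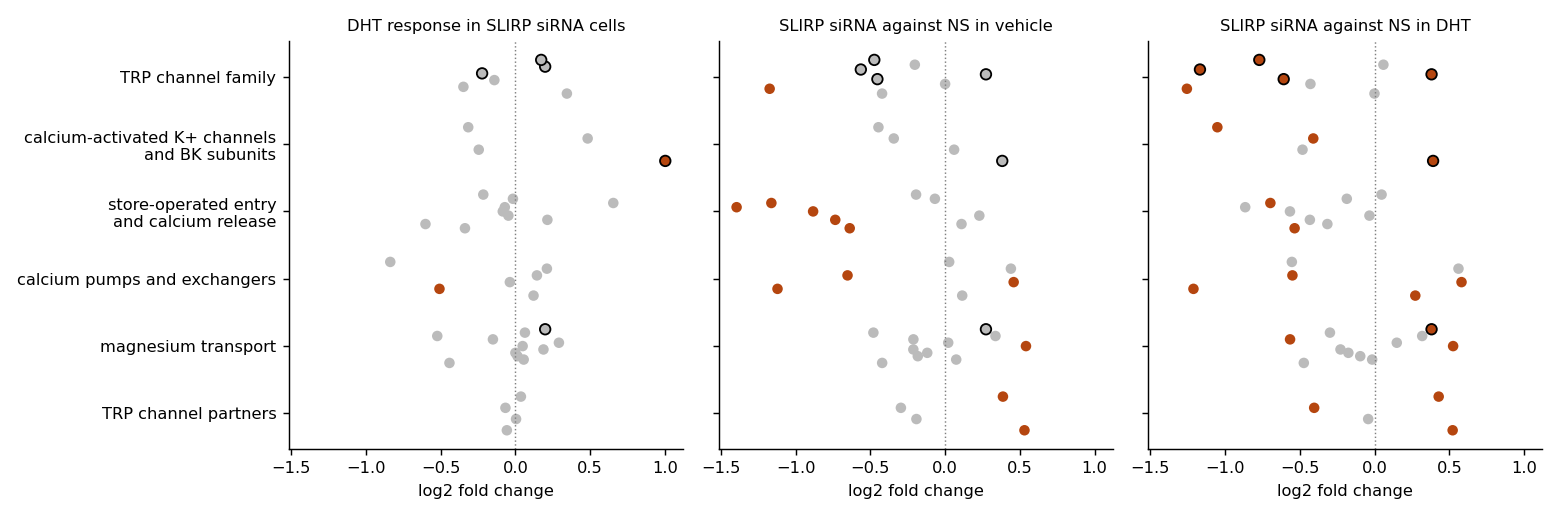
Log2 fold changes of the tested genes of 6 lists (rows) in 3 comparisons; each point is a gene, orange where edgeR's FDR was under 0.01 and grey otherwise, with a black rim for the members. In the DHT response of SLIRP siRNA cells the 2 orange points are KCNMA1 (1.00) and ATP2B1 (-0.51), while both SLIRP siRNA panels hold more.

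Channels act beside the machinery that fills and empties calcium stores. With DHT in SLIRP siRNA cells, where 1.04% of all genes were called, 1 gene of these lists was called. Among calcium pumps and exchangers 1 of 6 was called: ATP2B1, the plasma membrane pump PMCA1, fell by 0.51 (SE 0.11, edgeR adjusted p = 0.00753), from 182 ± 11.4 to 129 ± 13.3 CPM (SD, n = 4), a call that DESeq2 also made and limma did not. ATP2B1 was lower with DHT in NS cells too, by 0.42 (SE 0.08) on the log2 scale. Of 9 store-operated entry and release genes, edgeR, DESeq2 and limma called 0, with 3 at an unadjusted p under 0.05, and the median was -0.07. Of 11 magnesium transport genes they called 0, with 2 at an unadjusted p under 0.05 and a median of 0.05. Of 4 tested partners of TRP channels they called 0, with 0 at an unadjusted p under 0.05 and a median of -0.03.

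With SLIRP siRNA against NS more genes of these lists were called, in both directions, to be read against the 21.7% and 24.4% of all genes called. In vehicle, 5 of the 9 store genes were lower and none higher by edgeR, with a median of -0.64, and in DHT 2 were lower. DESeq2 and limma each called 5 store genes in vehicle and 1 in DHT. ITPR1, an IP3 receptor that releases calcium from the endoplasmic reticulum, fell by 0.64 in vehicle (SE 0.13, edgeR adjusted p = 1.70e-04) and by 0.54 in DHT (SE 0.14, edgeR adjusted p = 0.00196). ITPR3, of the same receptor family, fell by 0.73 in vehicle (SE 0.17, edgeR adjusted p = 7.77e-04). The others lower in vehicle, named after their values were seen, were the entry channel genes ORAI2 and ORAI3 and the ryanodine receptor gene RYR2, and in DHT RYR2 was called with ITPR1. STIM1, the calcium sensor of the store, had values of -0.07 (SE 0.14) and -0.19 (SE 0.13).

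Among the pumps, ATP2B1 fell by 1.12 in vehicle (SE 0.09, edgeR adjusted p = 5.46e-12) and by 1.21 in DHT (SE 0.10, edgeR adjusted p = 2.10e-12) with SLIRP siRNA. ATP2C1, the Golgi calcium and manganese pump, fell by 0.65 (SE 0.11, edgeR adjusted p = 1.88e-05) and 0.55 (SE 0.11, edgeR adjusted p = 9.52e-05). ATP2A2, which encodes the SERCA2 pump of the endoplasmic reticulum, rose in DHT by 0.27 (SE 0.07, edgeR adjusted p = 0.00410), and ATP2B4, named after its values were seen, rose in both conditions. In all, edgeR called 1 pump higher and 2 lower in vehicle, and 2 higher and 2 lower in DHT. DESeq2 called 2 pumps in vehicle and 4 in DHT, and limma 2 in each.

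On the magnesium list, where TRPM7 stands, edgeR called 1 gene higher in vehicle and 2 higher and 1 lower in DHT. DESeq2 called 1 gene of this list in vehicle and 3 in DHT, and limma 1 and 2. The genes called higher by edgeR were NIPA1, named after its values were seen, in both conditions and TRPM7 in DHT. SLC41A1, a magnesium transporter of the plasma membrane, fell by 0.57 in DHT (SE 0.13, edgeR adjusted p = 6.73e-04), and MAGT1 had a difference of -0.18 (SE 0.11, edgeR adjusted p = 0.207). Of the 4 partners of TRP channels tested, edgeR called 2 higher in vehicle, and 2 higher and 1 lower in DHT. DESeq2 called 1 partner in vehicle and 3 in DHT, and limma 2 in each. CALM3, a calmodulin gene, fell by 0.40 in DHT (SE 0.09, edgeR adjusted p = 6.98e-04), and CALM2, another, had a difference of -0.04 (SE 0.12). FAM115A, a gene for a partner of TRPM8 named after its values were seen, was called higher in both conditions.

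Across the 16 libraries, among genes whose counts averaged 30 or more, the genes whose pattern was most like that of TRPM8 included SLC45A3 (Pearson r = 0.929 of log2 CPM), which encodes the luminal protein prostein, and MCCC2 (r = 0.916). The pattern of KCNMA1 was most like that of KLK3 (r = 0.949), EDA (r = 0.937) and FAM174B (r = 0.927). Between members, r was 0.749 for TRPM8 and KCNMA1, 0.602 for TRPM8 and TRPV6 and -0.72 for TRPM4 and TRPM7. These values describe 16 libraries in 4 groups that share their treatments, so that any pair of genes moved by the same treatment correlates, and they carry no test.

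**Figure D5:**
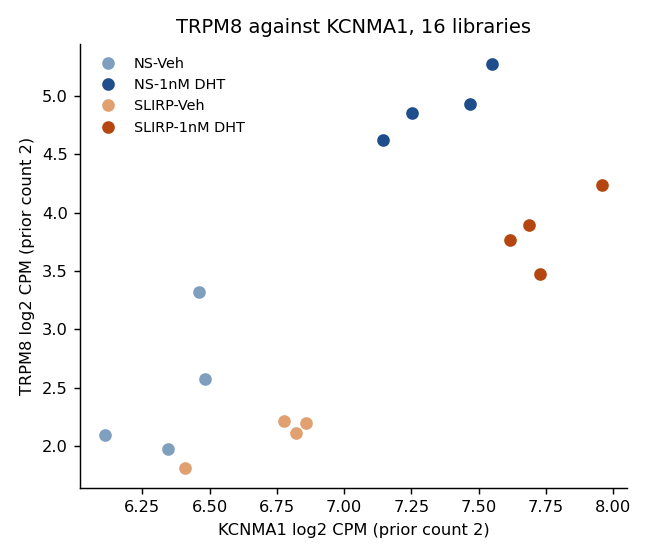
TRPM8 against KCNMA1 in log2 CPM (prior count of 2) for the 16 libraries, coloured by group. Both genes are higher in all DHT than in all vehicle libraries of the same siRNA, while SLIRP-1nM DHT libraries lie to the right of and below those of NS-1nM DHT.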

How the data were processed

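RNA of 16 LNCaP libraries was sequenced by the authors as single 50-base reads, with hg19, CASAVA and RSEM named in the submitters' processing notes. The authors deposited a table of estimated counts for 20531 entries, given as whole numbers, and a normalized score for 13148 genes (estimated counts divided by the upper quartile, multiplied by 1000). Annotation and strand setting are not given in the sources used here. Groups and replicate numbers came from the sample labels. The members and lists were chosen with earlier results of these data known.

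Estimated counts were analysed with edgeR 4.0.16 in R 4.3.3 (TMM, filterByExpr, quasi-likelihood test, Benjamini-Hochberg adjustment over all genes, FDR 0.01), tested on simulated data. DHT was compared with vehicle within the 8 libraries of each siRNA. SLIRP siRNA was compared with NS, and the responses with each other, in a 4-group model over all 16. Named beyond the members were C14orf156 and KLK3, list genes called in the DHT response of SLIRP siRNA cells, the 3 most abundant genes of each list and the 3 most correlated with TRPM8 and KCNMA1. Of these, 2 genes are not reported here. Alternatives were other normalizations and filters, DESeq2 1.42.0, limma 3.58.1 on the score (pseudocount 1), a replicate block, leaving out replicates, other sets of libraries and an FDR of 0.05. Log2 CPM used a prior count of 2. Sequences came from RefSeq (GRCh38.p14). Floors and intervals of counts cover counting error only.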

Additional observations from a re-analysis of the deposited data

How the results depend on the processing

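Of the member values tested in the main fits, none changed direction in the settings tried, 14 lost and 2 gained a call. The gains were TRPM4 and TRPM7 in vehicle at an FDR of 0.05. These counts leave out TRPM8, KCNMA1 between siRNAs and the list genes, some of which lost a call as given above. Another 19, counts and values given with no test, moved by more than 1.5 times or more than the spread between replicates. The KCNMA1 difference in DHT response, near 0, ranged from -0.06 to 0.10 and so took either sign. Counts of genes called with DHT depended on the setting: in SLIRP siRNA cells 101 genes became 180 without the filter, 38 with limma on the normalized table, 229 at an FDR of 0.05 and 22 to 68 without each replicate, and in NS cells 136 became 236, 38, 272 and 71 to 84. The cause was not tested. The fit with the replicate block called 220 and 270 genes and changed no call of the 5 members. The numbers were not taken to pair the samples, since not every pair correlated over 0.1: in NS-Veh and NS-1nM DHT, 3 of 4 same-numbered pairs did (mean r = 0.137, lowest 0.0504) and 3 of 4 correlated best with their own number, as a hint from the data, not the design.

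For SLIRP siRNA against NS in vehicle, TRPM8 ranged from -0.98 to -0.24 without each replicate, and TRPM4 (-0.45) and TRPM7 (0.27) were called at an FDR of 0.05. In DHT, TRPM4 was -0.59 with DESeq2, -0.67 with limma and -0.68 to -0.56 without each replicate. TRPV6 was -0.75 with DESeq2, -0.81 with limma, -0.76 on the groups compared alone and -0.96 to -0.63 without each replicate, and TRPM7 was 0.33 with limma and 0.35 to 0.43 without each replicate. The difference in DHT response ranged from -0.76 to -0.16 for TRPM8 and from -0.43 to -0.0033 for TRPV6 without each replicate. With a prior count of 0.5, chosen after seeing the data, the TRPM8 difference in SLIRP siRNA cells was 2.22 in place of 1.76, with the same exact p of 0.0286. Where at least 10 counts were required in every library, TRPM8 gave no value. Depth limits TRPM8 most, with 10 to 13 counts in each vehicle group.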
